A study of Homo sapiens with 2 samples.

Results

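The genes of transforming growth factor beta (TGF-beta) and bone morphogenetic protein (BMP) signalling were examined in the human breast carcinoma line MDA-MB-231, which has a mesenchymal character. The 42 members were a list of ligands, latency proteins, receptors, SMAD proteins, inhibitors and target genes, read by the probe sets whose only gene symbol in the platform annotation was the member's. Of the 42 members, 41 had such a probe set (135 probe sets in all), out of 18244 genes read by the array. BMPR1A was not analysed here. The cells with UGT8 knockdown were a clone with stably lowered UGT8, the ceramide galactosyltransferase, and the control was the parental line, so a property of the clone and an effect of the knockdown cannot be told apart. Both were grown in the same glucose-containing medium and harvested the same time after passage, and each was hybridised to 1 array. With 1 array per group no difference was tested and no p-value is given. Every difference below is a description of these 2 arrays.

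TGF-beta is secreted bound to its own propeptide and to a latent TGF-beta binding protein, and it must be released before it can bind a receptor. TGF-beta and activins then signal through type II and type I receptor kinases to SMAD2 and SMAD3, and BMPs through related receptors to SMAD1 and SMAD5. Both kinds of receptor-activated SMAD join SMAD4 and enter the nucleus, where SMAD6, SMAD7, PMEPA1 and the ID genes are among the induced genes, and SMAD6 and SMAD7 in turn inhibit the pathway. In breast carcinoma cells the pathway is known for restraining proliferation in some settings and for mesenchymal traits and invasion in others.

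The values are log2 values, and a difference is the value on the knockdown array minus that on the control array, so that a negative value means lower in the knockdown cells. Where a gene had several probe sets, the one with the highest average of the arrays stood for it. Genes whose mean lay at or above the median of all probe sets other than controls (6.64) were called past the floor, and these were 10439 genes, 36 of them members. Levels of different probe sets are not on a common scale, so levels were compared only between the arrays. UGT8 itself was lower by all of its probe sets, at 6.61 in knockdown cells against 8.95 in control cells by the brightest (-2.34), and at 5.78 against 7.47 and 4.79 against 7.06 by the others. The median difference of all genes past the floor was 0.03. The median SD between probe sets of 1 gene past the floor was 0.0832, which is no replicate error. The spike-in RNAs of the hybridisation step had a median difference of 0.51, and all directions below are on the deposited scale. Centred on them, every difference falls by that amount, and the share of all genes at least 1.5-fold lower becomes 37.0% and that at least 1.5-fold higher 0.479%. The 3' minus 5' difference of ACTB, a reading of RNA quality, was 0.90 on the knockdown array and 0.49 on the control array, and that of GAPDH was 0.19 and 0.18.

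The 6 mesenchymal markers of the line, VIM, CD44, AXL, ZEB1, CAV1 and EGFR, were all read past the floor, with ZEB1 lower by at least 1.5-fold (-0.77). The others lay within 1.5-fold, at 0.01 (VIM), -0.28 (CD44), -0.11 (AXL), -0.15 (CAV1) and -0.53 (EGFR). Of 7 luminal and epithelial markers, 5 were past the floor, CDH1, ERBB2, GATA3, FOXA1 and EPCAM, and EPCAM was higher in the knockdown cells (0.62). CDH1 (-0.35) and GATA3 (-0.22) were lower by less than 1.5-fold, and ERBB2 (0.17) and FOXA1 (0.06) were higher by less. The progesterone receptor gene PGR lay below the mean of the background probe sets (4.73) on both arrays, and ESR1 lay below the floor. The summed linear signal of this list was 1686 on the knockdown array and 1574 on the control array. Of 8 fibroblast markers, 2 were past the floor, and both were lower in the knockdown cells. COL3A1 differed by -1.53 and LUM by -1.34 on the log2 scale. COL3A1 read 6.48 in knockdown cells, below the floor, so it passed the floor through the control array alone. LUM read 6.69 in knockdown cells, just above the floor. The summed linear signal of the fibroblast list, in which the brighter genes weigh most, was 454.1 on the knockdown array and 830.9 on the control array. DCN and PDGFRA lay below the background mean. The others below the floor differed by 0.09 (COL1A1), 0.11 (COL1A2), 0.01 (THY1) and -0.75 (PDGFRB). Of 5 endothelial markers, 3 were past the floor, with PECAM1 lower (-1.09) and CDH5 below the background mean, and their summed signal was 475.4 on the knockdown array and 706.3 on the control array. Of 4 leukocyte markers read, CD14 alone was past the floor and was lower (-0.73), PTPRC and ITGAM lay below the background mean, and the sum was 194.6 on the knockdown array and 267.9 on the control array. The part of these transcripts in the differences below was not tested. In RNA from a whole culture, fewer cells that hold a transcript and less of it per cell cannot be told apart.

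Most members past the floor were lower in the knockdown cells, the ligands and latency proteins most of all. At a 1.5-fold difference, 12 of the 36 members were lower (33.3%), where 6.74% of all genes past the floor were lower, and 1 member was higher, where 4.96% of all genes were higher. At a 2-fold difference, 3 members were lower, against 1.54% of all genes, and 1 was higher, against 0.738% of all genes. In all, 28 of the 36 lay below 0 (77.8%), against 45.8% of all genes. The members were chosen with earlier results of these data known, so these shares describe the list and test nothing. The median over the members was -0.27. The members at least 2-fold apart were ID4 (3.25-fold lower), TGFB2 (2.12-fold lower), INHBB (2.08-fold lower) and ID3 (2.11-fold higher), so that ID4 and ID3, a pair of related targets, went opposite ways. By role, the median was -0.76 over 6 ligands, -0.53 over 4 latency proteins, -0.24 over 8 receptors and -0.27 over 7 SMADs. It was 0.01 over 6 inhibitors and -0.07 over 5 targets. These role medians rest on few genes and describe them only.

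**Figure D1:**
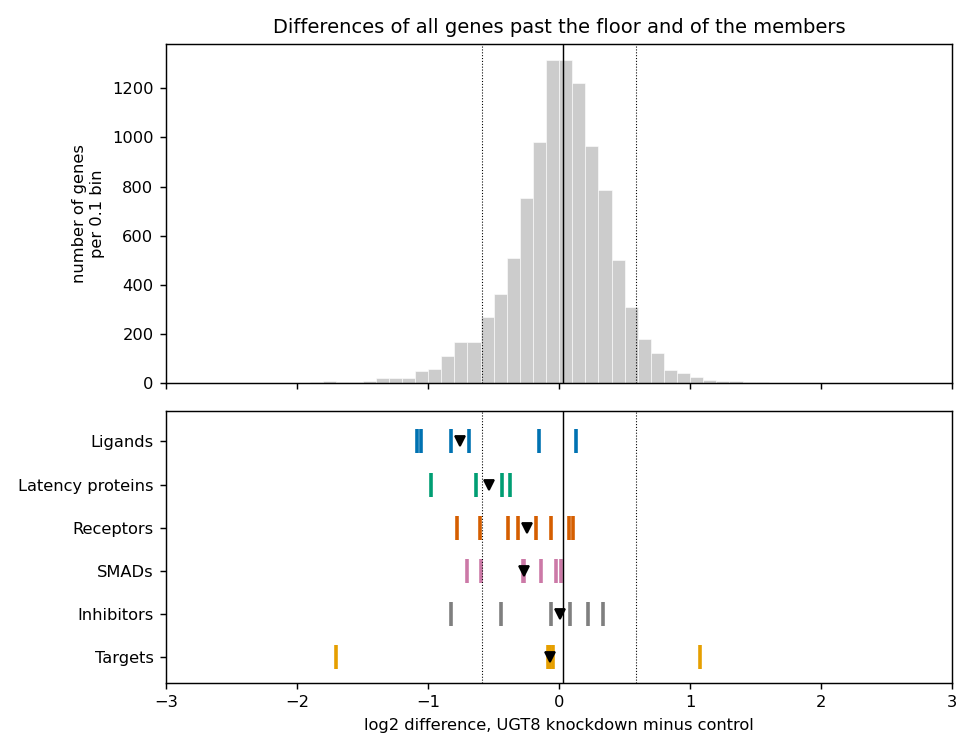
Upper panel, number of genes past the floor in bins of 0.1 of the log2 difference, UGT8 knockdown minus control. Lower panel, each member past the floor as a tick by role, with a triangle at the role median. The solid line is the median of all genes (0.03) and dotted lines mark 1.5-fold. The ligand median is -0.76, with the TGF-beta and activin subunit genes to the left of the bulk and BMP4 (-0.16) and GDF15 (0.13) within it. ID4 and ID3 stand at either end of the targets.

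To show the sequence context of the members that differed most, the 250 bases before the annotated start are given for the 4 members at least 2-fold apart, ID4, ID3, TGFB2 and INHBB, and for SMAD6, the member that held the palindromic SMAD box. Sequences are from RefSeq (GRCh38.p14), 5' to 3' on the gene's strand, at chr6:19837120-19837369 (plus strand), chr1:23559502-23559751 (minus), chr1:218345086-218345335 (plus), chr2:120345886-120346135 (plus) and chr15:66701986-66702235 (plus). Capitals mark matches, on either strand, to GTCTAGAC (the palindromic SMAD box), CAGACA (a SMAD-binding sequence), GGCGCC (a GC-rich SMAD sequence), TGACTCA (the AP-1 site) or TATAAA (the TATA box).
ID4: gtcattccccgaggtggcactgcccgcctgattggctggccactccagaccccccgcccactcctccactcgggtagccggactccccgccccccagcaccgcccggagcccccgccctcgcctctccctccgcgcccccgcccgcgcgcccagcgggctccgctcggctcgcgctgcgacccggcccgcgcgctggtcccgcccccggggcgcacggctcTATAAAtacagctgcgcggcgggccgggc
ID3: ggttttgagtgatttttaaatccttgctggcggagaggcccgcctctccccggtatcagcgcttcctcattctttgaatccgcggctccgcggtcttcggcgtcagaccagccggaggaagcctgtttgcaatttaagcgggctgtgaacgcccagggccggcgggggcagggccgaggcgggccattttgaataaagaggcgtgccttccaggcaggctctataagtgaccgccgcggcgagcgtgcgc
TGFB2: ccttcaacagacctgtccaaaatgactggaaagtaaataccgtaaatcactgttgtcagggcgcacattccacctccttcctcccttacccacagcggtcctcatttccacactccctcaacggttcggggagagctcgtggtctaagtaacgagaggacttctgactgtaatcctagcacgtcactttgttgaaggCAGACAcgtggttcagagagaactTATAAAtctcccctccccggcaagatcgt
INHBB: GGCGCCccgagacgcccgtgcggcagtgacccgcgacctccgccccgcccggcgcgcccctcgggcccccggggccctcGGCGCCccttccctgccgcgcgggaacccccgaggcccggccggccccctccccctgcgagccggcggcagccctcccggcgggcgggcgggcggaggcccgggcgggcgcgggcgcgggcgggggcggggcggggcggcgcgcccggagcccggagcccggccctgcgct
SMAD6: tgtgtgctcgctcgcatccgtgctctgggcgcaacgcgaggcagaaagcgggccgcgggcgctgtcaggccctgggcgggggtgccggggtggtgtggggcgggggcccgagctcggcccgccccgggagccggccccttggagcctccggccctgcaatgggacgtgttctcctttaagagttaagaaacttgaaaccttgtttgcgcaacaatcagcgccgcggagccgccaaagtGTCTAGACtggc

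Of 40 members with a promoter in the table, GTCTAGAC was found in 1, SMAD6, whose match starts 12 bases before the gene's start, and in 0.176% of 27305 promoters of the same length. CAGACA was found in 6 of the 40 members (15%), TGFB2, LTBP4, BMPR2, ACVR1, TGIF1 and GREM1, and in 13.6% of all promoters. GGCGCC was found in 14 of the 40 and in 16.1% of all promoters, and the members' promoters had a median GC content of 69%, against 58% over all. The composite of GGCGCC and, after 5 further bases, GTCT, which overlaps every such GGCGCC, was found in 0 of the 40 members and in 0.0842% of all promoters. TGACTCA was found in 1 member, SMAD1, and in 4.16% of all promoters. TATAAA was found in 6 of the 40 members, including ID1, ID4 and TGFB2, and in 11.1% of all promoters. The ID3 window held none of these letters, and the ID4 window held TATAAA alone, starting 29 bases before the start. These matches are descriptions of the sequence and not evidence of binding.

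Of the ligands, both TGF-beta genes and both activin subunit genes past the floor were lower in the knockdown cells. TGFB2, which encodes a TGF-beta isoform, read 8.63 in knockdown cells and 9.72 in control cells by its brighter probe set (-1.09, 2.12-fold lower). Its dimmer probe set read 6.47 in knockdown cells and 7.75 in control cells (-1.28). TGFB1, the most widely expressed isoform in most tissues, read 8.92 in knockdown cells and 9.75 in control cells (-0.83, 1.77-fold lower) by its only probe set. All probe sets of both genes were thus lower on the knockdown array. INHBB, the inhibin and activin beta B subunit, read 8.53 in knockdown cells and 9.59 in control cells (-1.06, 2.08-fold lower) by its only probe set. INHBA, the beta A subunit that forms activin A, read 10.07 in knockdown cells and 10.76 in control cells (-0.69, 1.61-fold lower), and its other probe set differed by -0.75. The subunits therefore differed in the same direction.

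The other ligands differed less. BMP4, a BMP that signals to SMAD1 and SMAD5, read 10.26 in knockdown cells and 10.41 in control cells (-0.16). GDF15, a stress-induced member of the superfamily, read 11.75 in knockdown cells and 11.62 in control cells (0.13), and its 3 probe sets past the floor lay between 0.03 and 0.14. TGFB3 (6.27 in knockdown cells, 6.51 in control cells) lay below the floor. BMP2 (4.63 in knockdown cells, 4.79 in control cells) lay near the background mean, so its difference cannot be read as a change of a measured transcript.

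**Figure D2:**
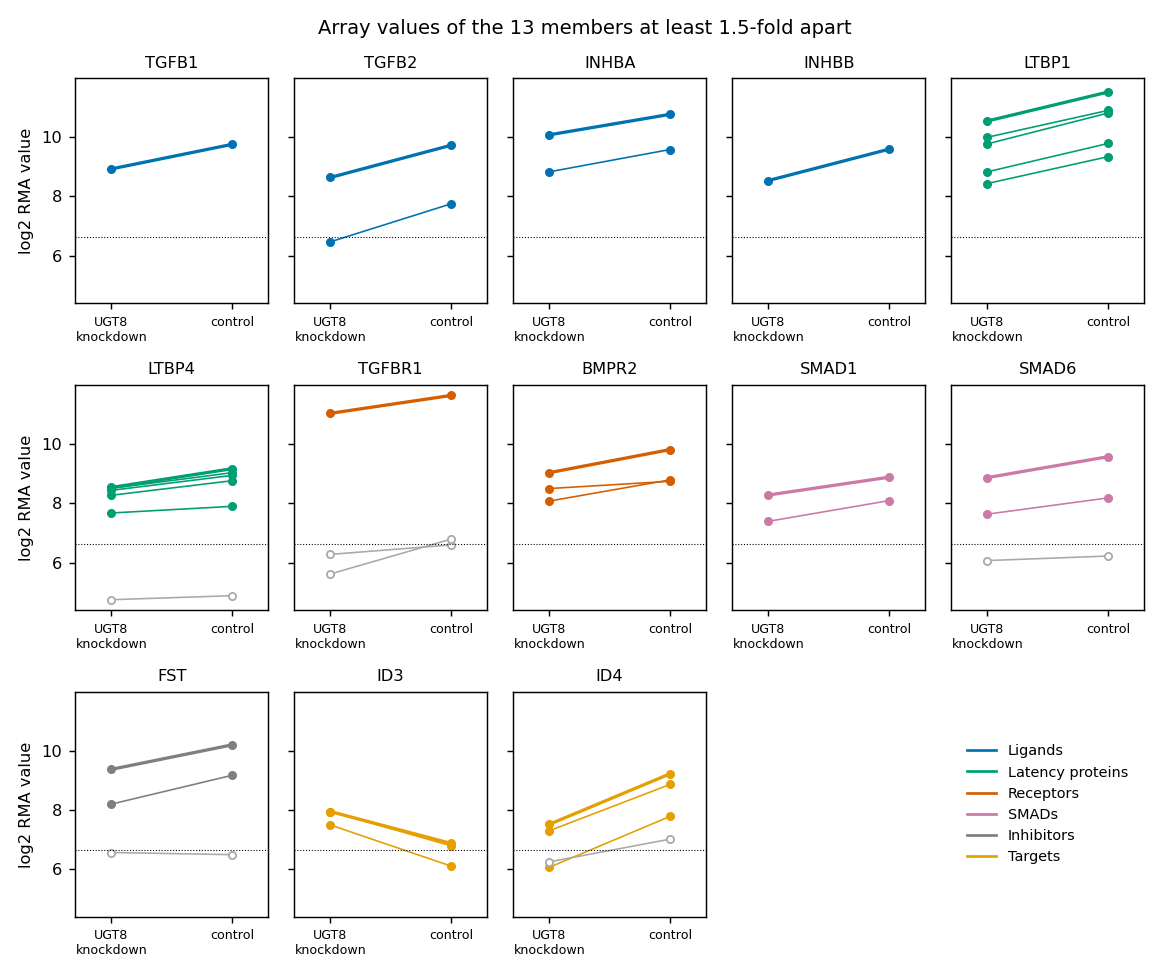
Log2 array values in UGT8 knockdown cells (left) and control cells (right) of each panel for the 13 members at least 1.5-fold apart. Each line is a probe set, the thick one that with the highest mean, and grey lines with open points are probe sets below the floor (dotted line, 6.64). In 12 panels the thick line is lower at the knockdown end, and in that of ID3 it is higher there.

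All 4 latent TGF-beta binding protein genes were lower, by every one of their 16 probe sets past the floor. LTBP1, which ties latent TGF-beta to the matrix, read 10.54 in knockdown cells and 11.51 in control cells (-0.97, 1.97-fold lower). Its 5 probe sets lay close together, between -1.04 and -0.90. LTBP4, which binds latent TGF-beta 1, read 8.53 in knockdown cells and 9.16 in control cells (-0.63, 1.55-fold lower). Its probe sets past the floor averaged -0.48, short of 1.5-fold. LTBP3 read 8.80 in knockdown cells and 9.24 in control cells (-0.44), and its probe sets averaged -0.62, past 1.5-fold. LTBP2, a matrix protein of the family that does not bind latent TGF-beta, read 9.01 in knockdown cells and 9.38 in control cells (-0.38), and 7.96 against 8.93 by its other probe set (-0.97). LTBP1 was thus the member of this family whose probe sets all lay past 1.5-fold, and the size of the others depended on the probe set.

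Of the receptors, a type I and a type II receptor gene were at least 1.5-fold lower, and the rest lay within 1.5-fold. BMPR2, the type II receptor for BMPs, read 9.03 in knockdown cells and 9.80 in control cells (-0.78, 1.71-fold lower). Its other probe sets differed by -0.71 and -0.24, and the mean over the 3 was -0.58, just short of 1.5-fold. TGFBR1, the type I TGF-beta receptor, read 11.02 in knockdown cells and 11.62 in control cells (-0.60, 1.52-fold lower) by a probe set marked for possible cross-hybridisation. Its 2 remaining probe sets lay below the floor and differed by -0.32 and -1.17. Each probe set of both genes was lower in the knockdown cells.

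TGFBR2, the type II receptor that binds TGF-beta first, read 12.33 in knockdown cells and 12.50 in control cells (-0.17). TGFBR3, betaglycan, a coreceptor that presents TGF-beta 2, read 8.69 in knockdown cells and 9.01 in control cells (-0.32). ACVR1, a type I receptor for BMPs, read 9.44 in knockdown cells and 9.83 in control cells (-0.39), and all 4 of its probe sets were lower. These 3 genes were lower by less than 1.5-fold in each of their probe sets. ACVR1B, the type I activin receptor, read 8.92 in knockdown cells and 8.84 in control cells (0.08). ACVR2A, a type II activin receptor, differed by -0.06, and endoglin (ENG), a coreceptor best known from endothelial cells, by 0.11, with 1 of its 5 probe sets past the floor. ACVR2B, another type II activin receptor outside the list of members, read 8.36 in knockdown cells and 8.81 in control cells (-0.45). ACVR1B, ACVR2A and endoglin thus lay close to 0, and ACVR2B was lower by less than 1.5-fold.

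Among the SMAD genes, SMAD1 and the inhibitory SMAD6 were at least 1.5-fold lower. SMAD1, which carries BMP signals, read 8.27 in knockdown cells and 8.87 in control cells (-0.60, 1.52-fold lower), and 7.39 against 8.09 by its other probe set (-0.70). SMAD6, which inhibits BMP receptor signalling, read 8.86 in knockdown cells and 9.56 in control cells (-0.70, 1.63-fold lower), and its second probe set past the floor differed by -0.55. With its dim probe set below the floor the SMAD6 mean was -0.47. SMAD5, which acts beside SMAD1, read 9.85 in knockdown cells and 9.87 in control cells (-0.03), with 4 probe sets past the floor between -0.19 and -0.03. SMAD1 and SMAD5 thus differed from each other in the size of their difference.

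The SMADs of the TGF-beta and activin branch lay within 1.5-fold. SMAD2 read 8.58 in knockdown cells and 8.86 in control cells (-0.27), and SMAD3 read 11.31 in knockdown cells and 11.45 in control cells (-0.14). All 5 probe sets past the floor of each gene were below 0. SMAD4, the shared partner, read 8.80 in knockdown cells and 8.79 in control cells (0.01) by its brightest probe set, but its 5 other probe sets past the floor were all below 0, down to -0.69. SMAD7, which inhibits both branches and is a direct target of TGF-beta, read 7.61 in knockdown cells and 7.89 in control cells (-0.28).

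**Figure D3:**
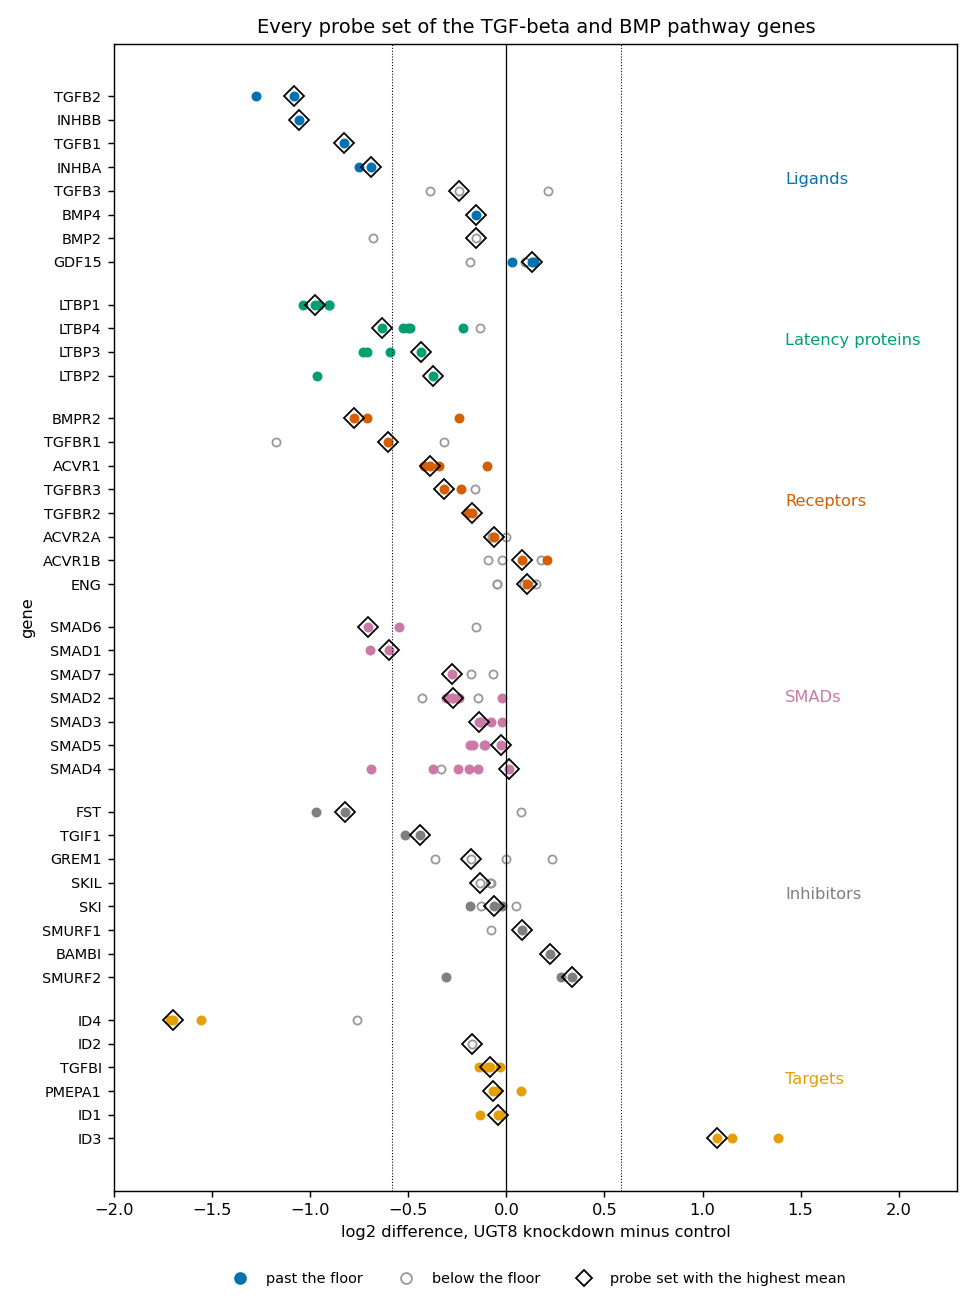
Log2 difference, UGT8 knockdown minus control, of each probe set (points) of the 41 members read, by role. Filled points are past the floor, open points are below it, diamonds mark the probe set that stands for the gene, and dotted lines mark 1.5-fold. Probe sets of LTBP1 and ID4 past the floor cluster together, and those of ID3 lie between 1.07 and 1.38. Those of SMAD4, SMURF2, BMPR2 and LTBP2 spread.

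The inhibitors were mixed, with 3 below 0 and 3 above 0. FST encodes follistatin, which binds and neutralises activins, and it read 9.37 in knockdown cells and 10.19 in control cells (-0.82, 1.77-fold lower). Its second probe set past the floor differed by -0.97, and with its dim one below the floor (0.07) the mean was -0.57, short of 1.5-fold. FST was thus lower beside both activin subunit genes. TGIF1, a homeodomain corepressor of SMAD2 and SMAD3, read 9.70 in knockdown cells and 10.14 in control cells (-0.44), and -0.52 was the difference of its other probe set. The corepressor gene SKI differed by -0.07. SKIL, which encodes the related SnoN, lay below the floor on mean level and differed by -0.13.

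BAMBI, a decoy receptor without a kinase, read 9.07 in knockdown cells and 8.85 in control cells (0.22). SMURF1, a ubiquitin ligase for SMADs and receptors, differed by 0.08. Its relative SMURF2 read 11.43 in knockdown cells and 11.09 in control cells (0.34), with another probe set at 0.28 and the remaining one at -0.31, so that its direction depended on the probe set. GREM1, a secreted BMP antagonist, read 3.83 in knockdown cells and 4.01 in control cells, below the background mean on both arrays.

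The ID genes encode helix-loop-helix proteins without a DNA-binding region, which hold back basic helix-loop-helix transcription factors, and several are direct targets of BMP SMADs. ID4 read 7.52 in knockdown cells and 9.22 in control cells (-1.70, 3.25-fold lower), leaving 30.8% of the control signal. Its 3 probe sets past the floor lay between -1.71 and -1.56, and the dim one at -0.76. The probe set at -1.71 read 6.07 in knockdown cells and 7.78 in control cells, so it passed the floor through the control array alone. ID4 had the 22nd lowest difference of the 10439 genes. ID3 read 7.95 in knockdown cells and 6.87 in control cells (1.07, 2.11-fold higher), and its other probe sets were higher by 1.15 and 1.38. Of its 3 probe sets, 2 are marked for possible cross-hybridisation and gave the smaller values. The unmarked one (1.38) read 7.49 in knockdown cells and 6.11 in control cells, so it passed the floor through the knockdown array alone. ID1, the best known BMP target of the family, read 10.10 in knockdown cells and 10.14 in control cells (-0.04), with all 3 probe sets between -0.13 and -0.04. ID2 lay below the floor, at 6.49 in knockdown cells and 6.67 in control cells. Of the 4 ID genes, 1 was thus higher, 1 was lower, ID1 lay within 1.5-fold and ID2 was not read past the floor.

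Other targets of TGF-beta in the list lay close to 0. PMEPA1, a TGF-beta target that dampens SMAD signalling, read 11.30 in knockdown cells and 11.36 in control cells (-0.07), and its 3 probe sets lay on both sides of 0. TGFBI, a matrix protein named for its induction by TGF-beta, read 11.36 in knockdown cells and 11.44 in control cells (-0.08), with 4 probe sets between -0.14 and -0.03. Both differed, by the probe set that stands for the gene, by less than the median SD between probe sets of a gene (0.0832).

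Of 114 further genes of the pathway, 110 had a probe set and 67 lay past the floor. Of these 67, 11 were at least 1.5-fold lower (16.4%, against 6.74% of all genes past the floor) and 1 was higher (against 4.96% of all genes), with a median of -0.10. The lists were chosen with earlier results of these data known, so these shares describe the lists and test nothing. Among 6 further activators of latent TGF-beta, the integrin subunit genes ITGB8 (-2.11, or -0.89 over all 4 of its probe sets) and ITGAV (-0.79) were lower, which together form a receptor that releases latent TGF-beta. ITGB8 read 6.45 in knockdown cells, below the floor, and 8.56 in control cells, so it passed the floor through the control array alone. Among 9 further antagonists, SOST, which encodes sclerostin (-0.77), and the BMP-binding membrane protein gene CRIM1 (-0.68) were lower. The BMP8B ligand (-0.63), the coreceptor gene NRP1 (-0.76) and the endocytic adaptor gene DAB2 (-0.61) were each the one gene of their list past 1.5-fold, and all were lower. Over all of their probe sets, BMP8B (-0.46) and DAB2 (-0.55) averaged short of 1.5-fold, and NRP1 averaged -0.64.

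Of 22 further TGF-beta targets, 3 were at least 1.5-fold lower (13.6%, against 6.74% of all genes) and 1 was higher, a share near the 4.96% of all genes, with a median of -0.07. The hyaluronan synthase gene HAS2 read 8.27 in knockdown cells and 10.12 in control cells (-1.85), the clock repressor gene BHLHE40 differed by -0.90 and the collagen crosslinker gene LOX by -0.87. LMCD1, a LIM-domain protein gene, read 9.48 in knockdown cells and 8.81 in control cells (0.67). CCN2, the connective tissue growth factor gene, differed by -0.33, JUNB by -0.48 and KLF10, an early TGF-beta response gene, by -0.07. These 3 were named after their values were seen, as widely used targets. Of 4 further BMP targets, the osteoblast transcription factor gene RUNX2 was lower (-0.82). The 17 further intracellular regulators had a median of 0.17, against 0.03 over all genes past the floor. Of the 17, 11 lay above 0, where 5580 of all 10439 genes past the floor did.

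**Figure D4:**
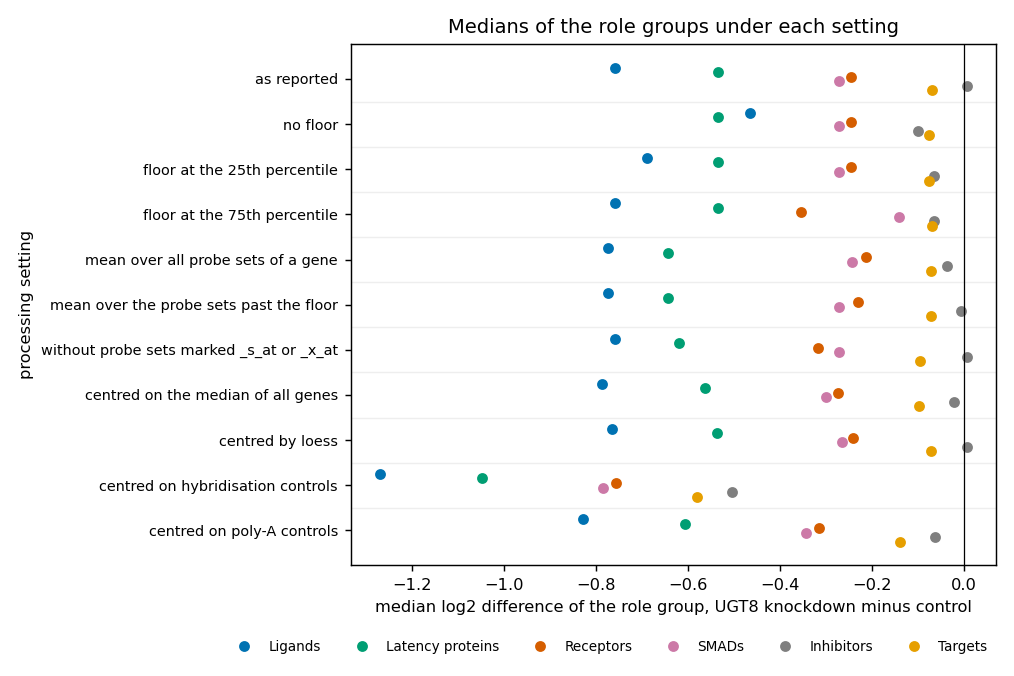
Median log2 difference, UGT8 knockdown minus control, of each role group (points) as reported and under each alternative processing setting. The ligand median ranges from -1.27 to -0.47 and stays below 0, as do those of the latency proteins, receptors, SMADs and targets. The inhibitor median lies at 0.01 as reported and slightly below 0 under several other settings, such as -0.10 with no floor. It lies at -0.51 when centred on hybridisation controls.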

How the data were processed

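RNA of UGT8 knockdown and control cells of the line MDA-MB-231 was hybridised to 1 Affymetrix array each. The deposited values are log2 RMA values, per the submitters' processing notes. RMA corrects background, normalizes between arrays, which removes a shift shared by most transcripts, and summarises probe sets. The software version and the build of the genome are not given in the sources used. Of 49495 probe sets, 102 were controls and 45278 had 1 symbol in the platform annotation, updated through gene IDs to RefSeq's table for GRCh38.p14. The brightest probe set of a gene stood for it, with the floor at the median mean level (6.64). Differences, medians and counts at 1.5-fold were computed with pandas 2.3.3 and numpy 2.4.6 in Python 3.11.15, and the steps were tested on simulated data. Groups came from the genotype labels. No test was possible with 1 array per group, so precision is limited by the number of arrays.

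The members and lists were chosen with earlier results of these data known. All members were described. Further pathway genes were named where past the floor and at least 1.5-fold apart, at most 4 per list. TATAAA was added to the motifs after the sequences were seen. Alternatives covered the fold threshold, the floor, the choice of probe set and the centring.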

Additional observations from a re-analysis of the deposited data

How the results depend on the processing

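The 3 other choices of probe set and the 4 centrings reversed none of the 13 member differences past 1.5-fold. Of 280 member values recomputed under them, 203 moved by less than the median SD between probe sets and 77 by more. The median, poly-A and hybridisation centrings shift every value by 0.03, 0.07 and 0.51. A 1.5-fold difference is 0.585 in log2, so these shifts could not reverse one. Their part of the tally was also fixed in advance by the SD of 0.0832. Median and poly-A centring move every value by less than it, and hybridisation centring moves every value by more. TGFB1 and INHBB have 1 probe set each, so the choice of probe set could not change them. Of the 13, 8 stayed past 1.5-fold under every choice of probe set and under median, loess and poly-A centring. The others were LTBP4, BMPR2, SMAD6 and FST, short of it when all probe sets were averaged (-0.42, -0.58, -0.47 and -0.57), and TGFBR1, short of it without probe sets marked for cross-hybridisation (-0.32). A 2-fold threshold left 3 of the 36 members lower, where 1.54% of all genes were lower. The threshold tried below 1.5-fold gave 16 of the 36 members lower, where 16.1% of all genes were lower. It gave 2 members higher, where 18.0% of all genes were higher. With no floor, the median was -0.18 over all members, -0.47 over ligands and -0.10 over inhibitors. With the floor at the 75th percentile, 10 members were lower and 0 higher, where 6.68% of all genes were lower and 4.03% higher. The median at that floor was -0.35 over receptors and -0.14 over SMADs. The members used were 41 with no floor and 29 at the 75th percentile, in place of 36. The latency protein median was -0.64 under either way of averaging and -0.62 with cross-hybridising probe sets left out, and UGT8 averaged -2.10 over all probe sets. Centring on the hybridisation controls gave 23 members lower, where 37.0% of all genes were lower, and 0 higher, where 0.479% were higher. The median was then -0.79 over all members and -0.48 over all genes, and UGT8 was -2.85. By role the member medians were -1.27 (ligands), -1.05 (latency proteins), -0.76 (receptors), -0.78 (SMADs), -0.51 (inhibitors) and -0.58 (targets). ID3 was 0.56, since that centring lowers every value alike. No paired analysis was possible because each group holds 1 array and no test was run.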
